A study of Mus musculus with 28 samples.

Results

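The comparison described here sets epidermal stem cells of mouse skin that had once been inflamed with imiquimod against cells of skin that had only received a control cream, over 3 later states combined. All RNA-seq libraries of those states were used, 6 after imiquimod and 6 controls, which are 12 of the 16 RNA-seq libraries and of the 28 samples of the series. C57BL/6 mice, labelled female, were treated at postnatal day 60 with topical imiquimod or with vanicream, the control cream, for 6 days. Skin was then taken 30 days after treatment without a wound (day 30), or wounded at 30 days and taken 6 h or 12 h later. Each state and treatment has 2 libraries, numbered 1 and 2. A control and an imiquimod library of the same state and number were taken as 1 of 6 pairs. The labels do not say whether a shared number marks a shared batch, so the pairing rests on the number alone. No allele or transgene is named for any group, and the labels do not say whether a library came from 1 mouse or several.

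Imiquimod activates Toll-like receptor 7 and gives a psoriasis-like inflammation of mouse skin that fades after the cream is stopped. Epidermal stem cells sit in the basal layer, renew the epidermis and migrate to close wounds. The AIM2 inflammasome is a complex in which the DNA sensor AIM2 engages the protease caspase-1, which in turn matures the cytokines IL-1β and IL-18. Here the cells had been sorted as positive for integrins α6 and β1 and for Sca1 and negative for CD34, a marker of hair follicle stem cells.

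The basal markers fitted that sort. Krt5, the basal keratin, ran from 14599 to 32877 CPM (each count relative to the total of its library, adjusted by TMM) over the 12 libraries, and Cd34 from 0.20 to 2.04 CPM. Library totals ran from 23623968 to 76993427 counts. The day 30 libraries numbered 1, control and imiquimod, held 0 and 1 Xist counts and 7847 and 6048 counts of Y-linked genes, against their label, while the other 10 held at least 13575 Xist counts and at most 7 of Y-linked genes. Since this pair goes against its label in both treatments, it does not separate the groups, and counts without it are given below.

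A small set of genes differed after imiquimod over the 3 later states combined. Of 16243 genes tested, 217 differed (1.34%) at an adjusted p under 0.05 in edgeR's quasi-likelihood test with the 6 pairs as blocks. After imiquimod 91 genes were higher (0.56%) and 126 lower (0.776%). The median absolute log2 change was 1.05 for the higher genes, 50 of which changed by at least 1, and 0.67 for the lower genes, 41 of which did. Without the pair that goes against its label the count was 255, with 101 higher and 154 lower. The count depends on the pairing: without the replicate block 41 genes differed, 19 higher and 22 lower. P values measure the spread between these libraries, which may be in part technical.

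Of 23 tested members of a list of inflammasome and IL-1 family genes, Casp1, Aim2, Il18 and Casp4 were higher and none was lower. Of the 23, 13 had a positive and 10 a negative log2 change, with a median of 0.07 against -0.01 over all genes. Over all 16243 genes 7879 were positive and 8364 negative, beside which the sign counts of this and later lists can be set. Casp1 encodes caspase-1, Casp4 the murine caspase-11 that senses bacterial lipopolysaccharide in the cytosol, and Il18 the cytokine that caspase-1 matures.

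Aim2 (chromosome 1, 173349547 to 173466040 in GRCm38, the basis of mm10) stood at 1.12 and 1.15 CPM in the day 30 controls, 1.34 and 1.14 CPM in the 6 h controls and 2.41 and 1.75 CPM in the 12 h controls. After imiquimod it stood at 9.80 and 10.5 CPM at day 30, 18.6 and 11.7 CPM at 6 h and 11.4 and 8.02 CPM at 12 h. Every imiquimod library lay above every control, and the level in unwounded skin was already near that in wounds. The log2 change was 2.94 ± 0.22 (SE, 6 pairs, adjusted p = 0.0007), and the exact paired permutation test over the 64 sign flips gave a two-sided p of 0.03125, the smallest it can give. Any gene with all 6 pairs of one sign gets this exact p, and 1385 of all 16243 genes had such pairs. Annotated Aim2 overlaps Cadm3, and since the sources used here do not state that counting used strand, reads of overlapping genes may be shared.

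Casp1 (chromosome 9, 5298517 to 5307281) was at 14.2 and 17.9 CPM in the day 30 controls, 10.4 and 8.31 CPM in the 6 h controls and 16.3 and 9.94 CPM in the 12 h controls. The imiquimod libraries held 30.3 and 44.9 CPM at day 30, 32.6 and 21.6 CPM at 6 h and 37.5 and 30.1 CPM at 12 h. Here too the groups did not overlap, and no gene had a smaller p. Its log2 change of 1.38 ± 0.084 (adjusted p = 0.00022, exact paired p = 0.03125) was 1.22 at day 30, 1.53 at 6 h and 1.40 at 12 h. Casp1 and Aim2 kept their calls in all 26 alternative analyses, those without any 1 of the 12 libraries or any 1 of the 3 states included. When 1 library is left out, its partner stands alone in its block and no longer bears on the imiquimod term. The 12 analyses without 1 library, here and below, thus amount to leaving out each of the 6 pairs, with either library as the one removed.

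Il18 (chromosome 9, 50554700 to 50581841) was higher in all 6 pairs, but the groups overlapped. Its controls held 0.79 and 7.10 CPM at day 30, 0.81 and 0.48 CPM at 6 h and 1.22 and 1.12 CPM at 12 h, and its imiquimod libraries 4.55 and 14.4, 5.50 and 4.80, and 7.78 and 8.33 CPM. The overlap came from the day 30 control numbered 2, which alone among controls exceeded 2 CPM. The log2 change was 2.45 ± 0.27 (adjusted p = 0.0052). Casp4, which begins just downstream of Casp1, rose from a mean of 36.9 to 57.1 CPM (log2 change 0.72 ± 0.10, adjusted p = 0.010), and Casp12, the next caspase gene along the chromosome, which was named after its values were seen, rose from 7.51 to 16.7 CPM (1.23 ± 0.19, adjusted p = 0.016). Casp12 kept its call in 5 of the 12 analyses without 1 library, Il18 and Casp4 in all 12. Il1b, the other cytokine of the pathway, had a log2 change of -0.37 ± 0.31 (adjusted p = 0.64), with 3 pairs higher and 3 lower. Of the markers of macrophages, which also carry inflammasomes, 3 were near 0: over the 12 libraries Csf1r reached at most 0.75 CPM, C1qa 0.80 CPM and Lyz2 1.00 CPM. The part of macrophages in these changes was not tested.

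**Figure D1:**
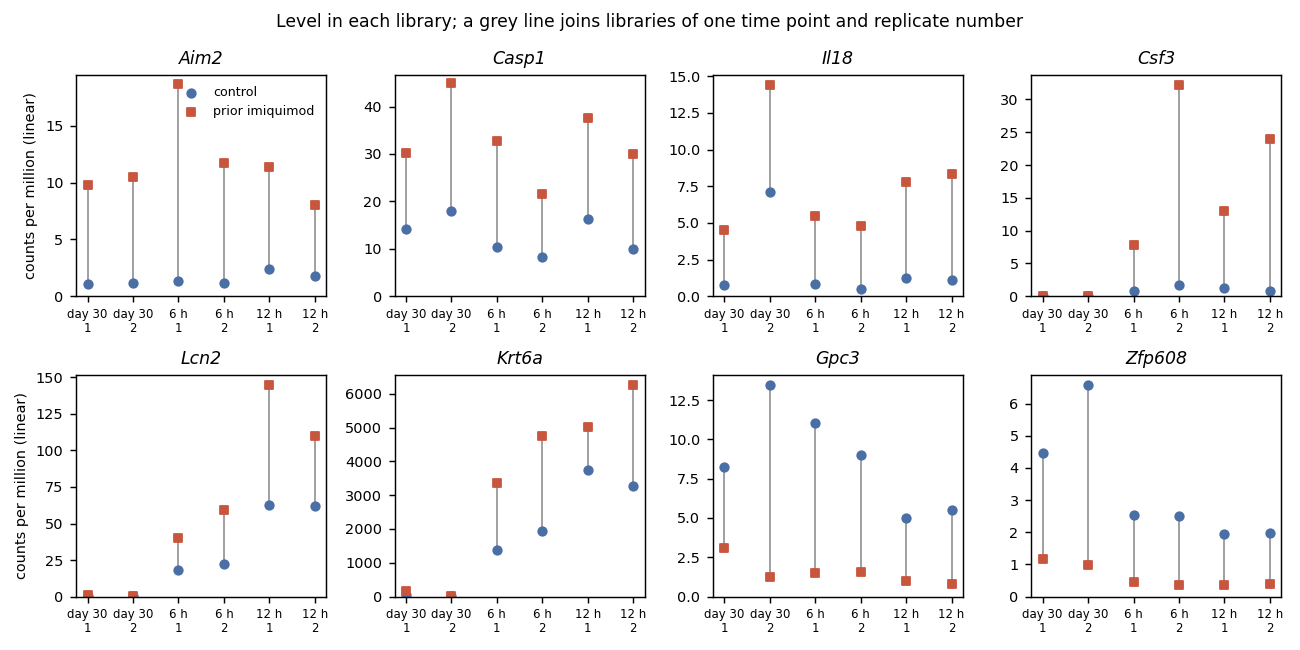
CPM (linear axes) of 8 genes in each of the 12 libraries, with controls as circles and imiquimod libraries as squares, by state and replicate number; grey lines join the libraries of a pair. Aim2 and Casp1 are apart in every state, Gpc3 and Zfp608 are apart in the opposite direction, and Csf3, Lcn2 and Krt6a are near 0 at day 30 on these axes.

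The promoters of 3 of these inflammasome genes are shown because the genes were higher together in the same 6 pairs. Each run gives the 250 bases before the RefSeq start, read 5′ to 3′ on the plus strand of GRCm38.p6, at chr1:173420354-173420603 for Aim2, chr9:5298267-5298516 for Casp1 and chr9:50554450-50554699 for Il18. The Aim2 window lies inside the span printed above for the gene, whose annotated start is further upstream. Capitals mark matches on either strand to AP-1 (TGANTCA), STAT (TTCNNNGAA) or RUNX (TGTGGT) letters.
Aim2: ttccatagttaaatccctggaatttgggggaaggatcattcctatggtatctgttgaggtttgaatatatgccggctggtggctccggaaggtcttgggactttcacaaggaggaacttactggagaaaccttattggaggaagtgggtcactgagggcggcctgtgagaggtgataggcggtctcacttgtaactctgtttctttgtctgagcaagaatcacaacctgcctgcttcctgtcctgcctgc
Casp1: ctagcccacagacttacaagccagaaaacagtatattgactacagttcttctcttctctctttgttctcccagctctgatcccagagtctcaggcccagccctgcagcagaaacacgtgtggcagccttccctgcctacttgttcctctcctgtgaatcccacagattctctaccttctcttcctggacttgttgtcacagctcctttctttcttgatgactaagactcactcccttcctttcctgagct
Il18: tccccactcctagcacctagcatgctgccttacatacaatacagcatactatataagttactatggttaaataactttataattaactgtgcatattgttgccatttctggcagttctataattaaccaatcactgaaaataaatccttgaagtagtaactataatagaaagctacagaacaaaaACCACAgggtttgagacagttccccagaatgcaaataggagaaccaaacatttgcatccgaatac

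The only match in these 3 windows was a RUNX sequence on the minus strand of the Il18 promoter, which begins 65 bases before the start. Promoter entries matched 57 of the 91 higher genes, 96 of the 126 lower genes and 11079 of all tested genes. AP-1 letters were found in 12.3% of the matched higher genes, 8.33% of the lower genes and 4.88% of all tested. STAT letters were found in 5.26%, 3.12% and 5.96%, and RUNX letters in 12.3%, 9.38% and 10.7%. These shares describe letters in a window, with no test.

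Of 31 tested keratinocyte genes induced by IL-17 and IL-36, cytokines of psoriasis, 5 were higher over the 3 states (Csf3, Lcn2, Slpi, Il19 and Cxcl1) and none lower. Over the list 23 members had a positive and 8 a negative log2 change, with a median of 0.68. The list's median was 1.01 at 6 h and 0.53 at 12 h and lay at 0 at day 30.

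Csf3, which encodes the neutrophil growth factor G-CSF, had the largest change of the genes named by rule, and it was a change seen in wounds. Its raw counts at day 30 were 0 in both controls and 2 and 3 in the imiquimod libraries. In wounds the controls held 0.80 and 1.76 CPM at 6 h and 1.22 and 0.82 CPM at 12 h, against 7.75 and 32.2 CPM and 12.9 and 23.9 CPM after imiquimod. Within each wound state the groups were far apart, and the log2 change over the 6 pairs was 3.96 ± 0.25 (adjusted p = 0.00022). Lcn2, the iron-withholding lipocalin, stood at 0.65 and 0.14 CPM in day 30 controls and 1.16 and 0.14 CPM in day 30 imiquimod libraries, but at 63.0 and 61.9 CPM in 12 h controls and 145 and 110 CPM in their imiquimod partners (log2 change 1.11 ± 0.099, adjusted p = 0.0015, 5 of 6 pairs higher). Slpi, a protease inhibitor of inflamed epithelium, had a log2 change of 1.16 ± 0.17 (adjusted p = 0.012). Cxcl1, a neutrophil chemokine, changed by 0.80 ± 0.15 (adjusted p = 0.035) and kept its call in 3 of the 12 analyses without 1 library. Il19, a cytokine of the IL-10 family, had at most 3 raw counts in each day 30 library and a log2 change of 2.47 ± 0.39 (adjusted p = 0.019). It kept its call in 6 of the 12 analyses without 1 library.

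Stress keratins and small proline-rich proteins are made by epidermis that is wounded or inflamed. Of 25 tested members of their list 6 were higher (Sprr2f, Krt6a, Sprr2d, Sprr2i, Sprr2e and Krt6b), none lower, and 22 had a positive log2 change. The list's median was -0.05 at day 30, 1.29 at 6 h and 0.68 at 12 h. Krt6a held 54.1 and 18.4 CPM in the day 30 controls and 157 and 28.9 CPM in the day 30 imiquimod libraries. At 6 h it rose from 1379 and 1945 CPM to 3371 and 4750 CPM, and at 12 h from 3753 and 3267 CPM to 5005 and 6247 CPM. All 6 pairs were higher after imiquimod, and the log2 change was 1.02 ± 0.14 (adjusted p = 0.010). Of the Sprr2 genes, Sprr2d had a log2 change of -0.05 at day 30, 3.11 at 6 h and 1.86 at 12 h, so its mean of 2.21 ± 0.32 (adjusted p = 0.012) came from the wounds. Sprr2i and Sprr2e had -1.44 and -3.79 at day 30, on at most 4 raw counts per library. In the 12 analyses without 1 library Krt6b kept its call in 2, Sprr2i in 4, Sprr2e in 6 and Sprr2d in 7. Krt16, a partner of Krt6a, did not pass the test (0.46 ± 0.19, adjusted p = 0.30), with log2 changes of -0.24 at day 30, 0.96 at 6 h and 0.65 at 12 h. Krt10, the suprabasal keratin (-0.18 ± 0.15, adjusted p = 0.63), and the basal keratins Krt5 (-0.03 ± 0.088) and Krt14 (0.03 ± 0.097) did not pass either.

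**Figure D2:**
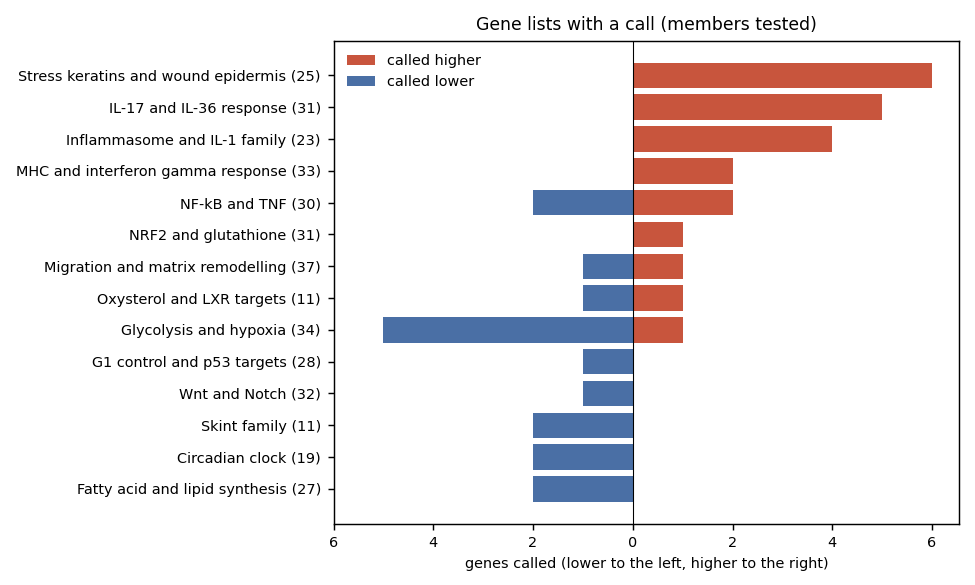
Number of genes called higher (right) and lower (left) after imiquimod in each of the 14 pathway lists with any call, with the number of tested members in parentheses. Calls in the stress keratin, IL-17 and inflammasome lists are all higher, and 5 of the 6 in the glycolysis and hypoxia list are lower.

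Other genes with large increases were of varied function. Lgi2, a secreted leucine-rich repeat protein, was at 0.05 and 0.14 CPM in day 30 controls and 0.71 and 0.64 CPM after imiquimod, and at 17.8 and 21.7 CPM in 12 h controls and 44.4 and 53.3 CPM after imiquimod. It was higher in every pair (log2 change 2.10 ± 0.30, adjusted p = 0.011). Vav1, a guanine nucleotide exchange factor best known in blood cells, changed by 1.75 ± 0.21, and Plscr1, a phospholipid scramblase, by 1.45 ± 0.26. Igf2bp2, an RNA-binding protein, changed by 1.47 ± 0.21, Sema6d, a semaphorin, by 1.46 ± 0.17, and Cdhr1, a protocadherin-related protein, by 1.54 ± 0.20. Piwil2, a PIWI protein, changed by 1.44 ± 0.23, Lyve1, a hyaluronan receptor of lymphatic vessels, by 1.31 ± 0.20 and Prss12, a secreted serine protease, by 1.26 ± 0.17. Each of these was higher in 6 of 6 pairs, with adjusted p from 0.0053 for Vav1 to 0.029 for Plscr1. Plscr1 kept its call in 4 of the 12 analyses without 1 library, and Piwil2 and Prss12 in 6.

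**Figure D3:**
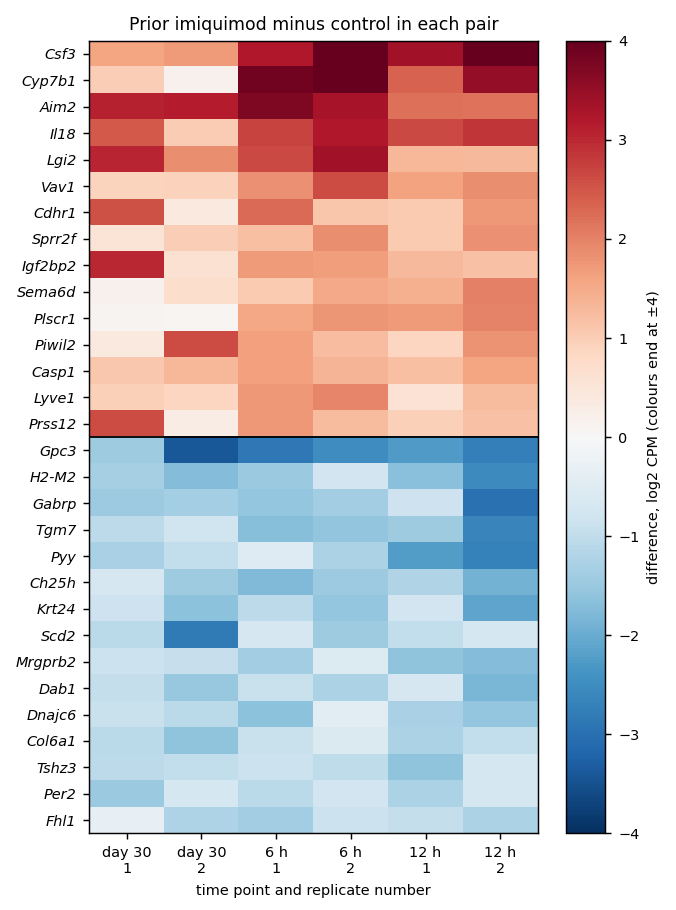
Difference in log2 CPM between the imiquimod and control library of each of the 6 pairs (columns) for the 15 genes with the largest increase and the 15 with the largest decrease (rows) among genes called with the same sign in every pair. Red is higher and blue lower after imiquimod; Plscr1 and Sema6d are pale at day 30, and Csf3 there rests on 0 to 3 counts.

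Oxysterol enzymes changed in opposite directions. Cyp7b1, which inactivates 25-hydroxycholesterol, rose by 3.35 ± 0.41 (adjusted p = 0.0080), from 0.17 and 0.07 CPM to 3.04 and 3.45 CPM at 6 h and from 1.55 and 0.77 CPM to 8.21 and 9.29 CPM at 12 h. At day 30 it had at most 4 raw counts in any library. Ch25h, which makes 25-hydroxycholesterol, fell by 1.39 on the log2 scale (SE 0.15, adjusted p = 0.0052), from 46.7 and 86.2 CPM to 29.2 and 32.0 CPM at day 30, from 9.44 and 5.84 CPM to 2.74 and 2.09 CPM at 6 h, and from 3.18 and 2.81 CPM to 1.36 and 0.73 CPM at 12 h. Ch25h was lower in all 6 pairs. The other 9 tested members of the oxysterol and LXR list did not pass.

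Lower genes were more even over the 3 states than higher ones. All 126 had a negative log2 change in each state, with medians of -0.50 at day 30, -0.70 at 6 h and -0.75 at 12 h, and 116 of them were lower in all 6 pairs, as were 4.71% of all genes. Of the 91 higher genes 84 kept a positive sign in each state, with medians of 0.59, 1.26 and 0.94, and 68 were higher in all 6 pairs, as were 3.82% of all genes. One sign in all 3 states, of either direction, was seen in 5139 of all 16243 genes. These counts use the values that made the calls and so are a description. Both day 30 pairs went the way of the call in 70 of the 91 higher and 120 of the 126 lower genes. Over all genes both day 30 pairs were higher in 24.3% and lower in 30.8%. The day 30 pairs are among those that made the calls. Of the higher genes 9 had at most 3 raw counts in each of the 4 day 30 libraries, Csf3, Il19, Sprr2e and Hmga2 among them, and none of the lower genes did. Of all 16243 genes 325 did.

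Zfp608, a zinc finger protein, and Gpc3, the proteoglycan glypican-3, had no overlap between groups. Zfp608, which was named after its values were seen, stood at 4.46 and 6.58 CPM in day 30 controls, 2.52 and 2.50 CPM in 6 h controls and 1.93 and 1.96 CPM in 12 h controls. Its imiquimod libraries held 1.16 and 0.98, 0.46 and 0.35, and 0.36 and 0.38 CPM. The log2 change of -2.44 ± 0.17 (adjusted p = 0.00026, exact paired p = 0.03125) kept its call in all 26 alternative analyses. That exact p follows from the 6 pairs being of one sign and adds nothing beyond it. Gpc3 stood at 8.27 and 13.5, 11.1 and 9.00, and 5.01 and 5.54 CPM in the controls, and at 3.07 and 1.25, 1.49 and 1.59, and 1.01 and 0.80 CPM after imiquimod. Its log2 change was -2.56 ± 0.22 (adjusted p = 0.0015).

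Complete separation of all 12 libraries was rare. In 25 genes (0.154%) all imiquimod libraries lay outside the range of the controls, and 15 of these genes were called. The called ones were Casp1, Aim2 and Platr14, which were higher, and 12 lower genes that include Zfp608, Gpc3, Ptprm (a receptor tyrosine phosphatase), Cadps2 (a factor of vesicle release), Gjc1 (a connexin) and Clasp2 (a microtubule-binding protein).

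Of 34 tested glycolysis and hypoxia genes 5 were lower (Vegfa, Ero1l, Pfkp, Car9 and Bnip3), Slc16a1, a lactate transporter, was higher, and 30 had a negative log2 change, with a median of -0.16. Vegfa, the endothelial growth factor induced by hypoxia, held 101 and 52.5 CPM in day 30 controls, 239 and 444 CPM in 6 h controls and 213 and 245 CPM in 12 h controls. After imiquimod the values were 81.0 and 42.2, 168 and 305, and 135 and 195 CPM, each below its own control although the groups overlapped. The log2 change was -0.45 ± 0.061 (adjusted p = 0.010) and kept its call without each library in turn. Car9, a carbonic anhydrase, changed by -0.89 ± 0.17 and Bnip3, a mitophagy receptor, by -0.68 ± 0.13, and they kept their calls in 4 and 2 of those 12 analyses.

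In the circadian clock list Per2 (-1.03 ± 0.14, adjusted p = 0.010) and Per3 (-0.44 ± 0.089, adjusted p = 0.049) were lower and 18 of 19 tested members were negative. The list's median log2 change was -0.04 at day 30, -0.57 at 6 h and -0.37 at 12 h. Per2 was lower in 6 of 6 pairs, with 9.85 and 3.29 CPM in day 30 controls against 3.48 and 2.00 CPM after imiquimod, while Per3 lost its call without any 1 library. The time of day at harvest is not in the labels, and its part was not tested. The Skint genes, whose products select and hold epidermal γδ T cells, were negative in 11 of 11 tested members. Of these Skint6 (-0.33 ± 0.054, adjusted p = 0.019) and Skint11 (-0.57 ± 0.098, adjusted p = 0.022) were called. They kept their calls in 6 and 8 of the 12 analyses without 1 library. Skint11 held 37.4 and 47.1 CPM in the day 30 controls and 17.4 and 32.3 CPM in the day 30 imiquimod libraries. Of 27 tested genes of fatty acid and lipid synthesis 12 were positive, and the called ones were Scd1 and Scd2, fatty acid desaturases of neighbouring loci, which changed by -0.61 ± 0.10 and -1.27 ± 0.25. Scd2 (adjusted p = 0.049) was lower in 6 of 6 pairs but kept its call in 2 of the 12 analyses without 1 library, those without either day 30 library numbered 2, with a change of -0.94 in each.

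Of 37 tested genes of migration and matrix remodelling, Mmp9 was higher and Fn1 lower, 23 had a positive log2 change and the median was 0.07. Fn1, fibronectin, changed by -1.39 ± 0.28 (adjusted p = 0.0499) and kept its call in 2 of 12 analyses without 1 library. Mmp9, a gelatinase of wound edges, changed by 1.22 ± 0.24 (adjusted p = 0.043) and kept its call in 4 of those 12. Col6a1, a collagen VI chain, held 44.2 and 41.9, 15.4 and 14.7, and 8.90 and 8.22 CPM in the controls and 20.8 and 13.7, 8.24 and 9.96, and 3.71 and 4.11 CPM after imiquimod (log2 change -1.07 ± 0.12, adjusted p = 0.0052). It is 1 of 15 tested fibroblast markers, and the only one called. The list's sum ran from 464 to 1172 CPM in controls and from 356 to 1170 CPM after imiquimod, and its median log2 change was 1.87 at day 30, -1.63 at 6 h and 0.01 at 12 h. Single libraries stood apart in these markers: Col1a2, a collagen I chain, was at 56.6 CPM in the day 30 imiquimod library numbered 1 and 0.24 CPM in the one numbered 2, and at 13.3 CPM in the 6 h control numbered 1. Most of the sums came from Postn, Sparc and Thy1. The collagen IV genes Col4a1 (-0.99 ± 0.13, adjusted p = 0.010) and Col4a2 (-0.91 ± 0.18, adjusted p = 0.043), which encode chains of the basement membrane, were lower in 6 of 6 pairs. Col4a2 kept its call in 4 of the 12 analyses without 1 library. Both collagen IV genes were named after their values were seen.

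Further genes among the 15 largest decreases were H2-M2, a nonclassical MHC class I gene (-1.64 ± 0.19), Gabrp, a GABA receptor subunit (-1.59 ± 0.23), Tgm7, a transglutaminase (-1.51 ± 0.21), Pyy, peptide YY (-1.41 ± 0.26), and Krt24, a keratin (-1.34 ± 0.20). H2-M2 fell from 18.6 and 27.8 CPM to 7.31 and 8.33 CPM at day 30. Mrgprb2, a receptor best known in mast cells, changed by -1.22 ± 0.19, at 4.28 to 12.2 CPM at day 30 and 0.27 to 1.69 CPM in wounds. The mast cell marker Cma1 reached at most 0.09 CPM at day 30 and 2.85 CPM in wounds, and Kit 0.29 and 2.43 CPM. Their log2 changes were 0.17 and -0.87 (adjusted p = 0.72 and 0.34 in edgeR's test). The part of mast cells in Mrgprb2 was not tested. Dab1, an adaptor of reelin signalling, changed by -1.19 ± 0.14, Dnajc6, an uncoating factor, by -1.18 ± 0.15, Tshz3, a zinc finger protein, by -1.04 ± 0.14, and Fhl1, a LIM protein, by -1.02 ± 0.14. Each of these further decreases was seen in 6 of 6 pairs, with adjusted p from 0.0053 for H2-M2 to 0.035 for Pyy. Pyy kept its call in 6 of the 12 analyses without 1 library.

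NF-κB genes went both ways. Tnfaip2 (1.16 ± 0.17, adjusted p = 0.010) and Ccl7, a monocyte chemokine (1.13 ± 0.22, adjusted p = 0.043), were higher. Ccl7 kept its call in 3 of the 12 analyses without 1 library. Tnfaip3, which encodes the NF-κB inhibitor A20, fell from 1237 and 2077 CPM to 744 and 1464 CPM at day 30, from 222 and 270 CPM to 117 and 138 CPM at 6 h and from 124 and 123 CPM to 69.2 and 88.4 CPM at 12 h. Its log2 change was -0.74 ± 0.079 (adjusted p = 0.0050), and Birc3, an inhibitor of apoptosis, changed by -0.31 ± 0.051 (adjusted p = 0.021). Birc3 kept its call in 6 of the 12 analyses without 1 library. Of 33 tested genes of MHC and the interferon γ response, H2-Ab1, an MHC class II chain (1.13 ± 0.21, adjusted p = 0.035), and Socs1, a brake on cytokine signalling (0.63 ± 0.11, adjusted p = 0.021), were higher and none lower. They kept their calls in 3 and 4 of the 12 analyses without 1 library. The log2 change of H2-Ab1 was 1.68 at day 30, 0.30 at 6 h and 1.45 at 12 h. H2-Ab1 is also a marker of Langerhans and dendritic cells, whose defining marker Cd207 ran from 0.24 to 1.34 CPM over the 12 libraries. The 8 tested of 12 markers of those cells summed to 158 to 502 CPM in controls and 168 to 422 CPM after imiquimod, most of it Epcam, and 6 of the 8 had a positive log2 change. The part of such cells in H2-Ab1 was not tested, and in sorted bulk samples fewer cells of a type cannot be told apart from less RNA per cell.

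No gene was called in 14 of the 28 pathway lists. The counts below can be set beside those over all 16243 genes. Of these, 2409 had an unadjusted p under 0.05 in edgeR's test, and DESeq2 called 325 higher and 381 lower. A positive log2 change was seen in 7879 of them and a negative one in 8364. Of 29 tested type I interferon response genes 12 had a positive and 17 a negative log2 change (median -0.04). Beside the 0 called by edgeR, 4 had an unadjusted p under 0.05 and DESeq2 called 1. Of 35 genes of oxidative phosphorylation all 35 had a positive log2 change, with a median of 0.17 that was -0.05 at day 30, 0.28 at 6 h and 0.28 at 12 h. Beside the 0 called by edgeR, 21 had an unadjusted p under 0.05 and DESeq2 called 3 higher. The sterol synthesis genes had a median of -0.69 at day 30 and 0.39 at 6 h, and 0 of 25 were called by edgeR, at an unadjusted p under 0.05 or by DESeq2. In the list of suprabasal differentiation 0 of 42 were called by edgeR, 12 had an unadjusted p under 0.05, and DESeq2 called 2 higher and 8 lower. Of the proliferation genes 27 of 40 were negative. Mki67, the proliferation marker, changed by -0.33 ± 0.11 (adjusted p = 0.21), and Stat3, a transducer of cytokine signals, by 0.03 ± 0.071 (adjusted p = 0.91). Hair shaft markers were negative in 13 of 13 tested members (median -1.89) with 0 called by edgeR, 7 at an unadjusted p under 0.05 and 1 by DESeq2. The 6 h control numbered 2 stood apart in these markers, with Krt71, an inner root sheath keratin, at 26.6 CPM against at most 2.87 CPM in the other 11 libraries. In lists with few calls, Gclm, an enzyme of glutathione synthesis, changed by 0.36 ± 0.069 (adjusted p = 0.038), and Ccnd2, a G1 cyclin, by -0.44 ± 0.076 (adjusted p = 0.024). Gclm and Ccnd2 each kept their call in 2 of the 12 analyses without 1 library. Lef1, a factor of Wnt signalling, was called (adjusted p = 0.035) at 0 to 2.21 CPM in the controls and 0 to 0.35 CPM after imiquimod. Its highest value was in the same 6 h control, without which it was not called (adjusted p = 0.19), and it kept its call in 6 of the 12 analyses without 1 library.

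The calprotectin genes S100a8 and S100a9, which encode an antimicrobial protein of neutrophils and of inflamed keratinocytes, were the only ones whose imiquimod effect differed between the 3 states at an adjusted p under 0.05 (0.0123% of genes, adjusted p = 0.0069 for each in edgeR's test with 2 degrees of freedom). That count of 2 was 0 without the replicate block, 7 with RLE scaling and 52 without the day 30 pair that goes against its label. It was 1 without the 6 h control numbered 1 or either 6 h imiquimod library, and 8 or 9 without any 1 of the 12 h libraries. S100a8 held 4.97 and 1.13 CPM in day 30 controls and 6.95 and 0.74 CPM in day 30 imiquimod libraries. At 6 h it held 6.29 and 23.9 CPM in the controls and 138 and 591 CPM after imiquimod, and at 12 h 53.5 and 53.2 CPM against 319 and 280 CPM. The groups overlapped at day 30 and did not overlap in either wound state. The log2 change was 0.20 at day 30, 4.55 at 6 h and 2.48 at 12 h for S100a8, and 0.15, 4.28 and 2.27 for S100a9. The common change of S100a8 over the 6 pairs was 2.87 ± 0.63 (adjusted p = 0.085) and did not pass. Both genes are also neutrophil markers. That list's 4 tested members, Cxcr2 and Hdc being the others, summed to 2.71 to 256 CPM in controls and 1.86 to 1473 CPM after imiquimod, while Ly6g, Csf3r, Mpo, Elane, Retnlg, Ngp, Camp and Ltf did not pass the filter on low counts. The part of neutrophils was not tested.

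**Figure D4:**
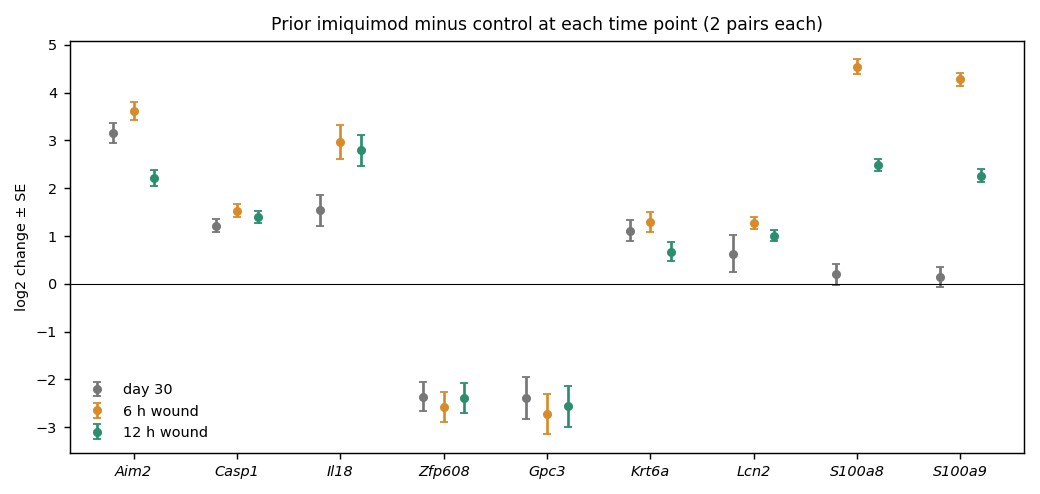
Log2 change after imiquimod with its SE in each state (2 pairs each) for 9 genes. Aim2, Casp1, Zfp608 and Gpc3 each have changes of one sign in the 3 states, with Aim2 at 3.16, 3.61 and 2.22, and S100a8 and S100a9 are near 0 at day 30 and above 2 in wounds.

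Genes that were higher in the wound states did not, as a set, lie above 0 in unwounded skin. Lower ones lay below 0 more often than all genes did in only 1 of the 2 day 30 pairs. To read an effect in libraries that had not been used to pick the genes, genes were called in 2 states and their sign was read in the other; this reading was chosen after earlier results had been seen. With the wound states alone 872 genes were higher (5.35%) and 662 lower (4.06%). At day 30 only 34.5% of the 872 had a positive log2 change, against 46.4% of all genes, and their median was -0.06. The day 30 pairs differed in this: 51.3% were positive in the pair numbered 1, which goes against its label, against 47.1% of all genes, and 27.8% in the pair numbered 2, against 46.4%. The low share thus came from 1 pair. Of 661 lower genes tested at day 30, 60.7% were negative, against 53.6% of all genes. The share was 62.3% in the pair numbered 1 and 53.3% in the pair numbered 2, where all genes had 52.9% and 53.6%. The excess of negative signs thus came from the pair numbered 1, which goes against its label. Conversely, genes called with day 30 and 1 wound state were few, and all but 1 kept their sign in the other wound. With day 30 and 12 h, 11 genes were higher (0.0695%) and 14 lower (0.0885%). At 6 h 10 of the 11 were positive and 14 of the 14 negative, where all genes had 50.2% positive and 49.8% negative. With day 30 and 6 h, 6 genes were higher (0.0396%) and 5 lower (0.033%). At 12 h all 6 were positive and all 5 negative, where all genes had 49.7% positive and 50.3% negative.

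Of the 217 calls, 209 were kept without day 30, 22 without 6 h and 11 without 12 h. Calls held whichever state was left out in 6 genes. Casp1, Aim2, Csf3 and Lgi2 were higher, and Zfp608 and Calm5, a calmodulin-like gene of epidermis, were lower. Calm5 fell from a mean of 77.8 to 41.4 CPM (adjusted p = 0.0050) and was lower in 6 of 6 pairs. Csf3 belongs here by its test although its day 30 counts were 0 to 3. Calls held whichever of the 12 libraries was left out in 50 genes, 24 higher and 26 lower, among them Il18, Casp4, Krt6a, Lcn2, Gpc3, Col6a1, Ch25h, Vegfa, Per2 and Tnfaip3. Without the replicate block Gpc3, Col6a1 and Ch25h kept their calls. Il18, Casp4, Krt6a, Lcn2, Vegfa, Per2 and Tnfaip3 lost theirs without it.

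Most of the genes that differed later had already differed at the end of the 6 days of treatment. The 4 day 6 libraries share no library with the 12, though they enter a fit with them that gives a common spread. At day 6 imiquimod raised 22.4% and lowered 15.6% of the 16243 genes at an adjusted p under 0.05. Of the 91 genes that were higher later, 79 (86.8%) were higher at day 6 and none was lower, and all 91 had a positive log2 change, as did 53.9% of all genes. In a fit of the day 6 libraries alone 88 of 89 were positive. Their median at day 6 was 2.91 on the log2 scale. Of the 126 lower genes, 90 (71.4%) were lower at day 6, with a median of -1.59. Aim2 stood at 2.23 CPM in day 6 controls and 26.1 CPM under imiquimod (log2 change 3.54 ± 0.33), and Casp1 at 11.2 and 47.5 CPM (2.08 ± 0.28). Zfp608 fell from 6.16 to 0.66 CPM and Gpc3 from 13.5 to 1.55 CPM at day 6.

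Only 5 of the 126 lower genes (3.97%) had been higher at day 6 in edgeR's test: Vegfa, Ero1l, Mgarp, Birc3 and Scd2. Vegfa had a log2 change of 1.73 ± 0.48 at day 6 and -0.45 ± 0.061 later, Ero1l, an oxidase of the endoplasmic reticulum, of 1.96 ± 0.32 and -0.41 ± 0.064, and Mgarp, a mitochondrial protein, of 3.99 ± 0.64 and -1.39 ± 0.26. Birc3 went from 0.51 ± 0.15 to -0.31 ± 0.051 and Scd2 from 1.28 ± 0.45 to -1.27 ± 0.25. In the glycolysis and hypoxia list as a whole 23 of 34 genes had been higher at day 6 and 1 lower, with a median of 1.61. Tnfaip3, Tshz3 and Per2, which were lower later, had log2 changes of -0.57, -0.92 and -1.38 at day 6 that did not pass (adjusted p = 0.34, 0.10 and 0.067).

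**Figure D5:**
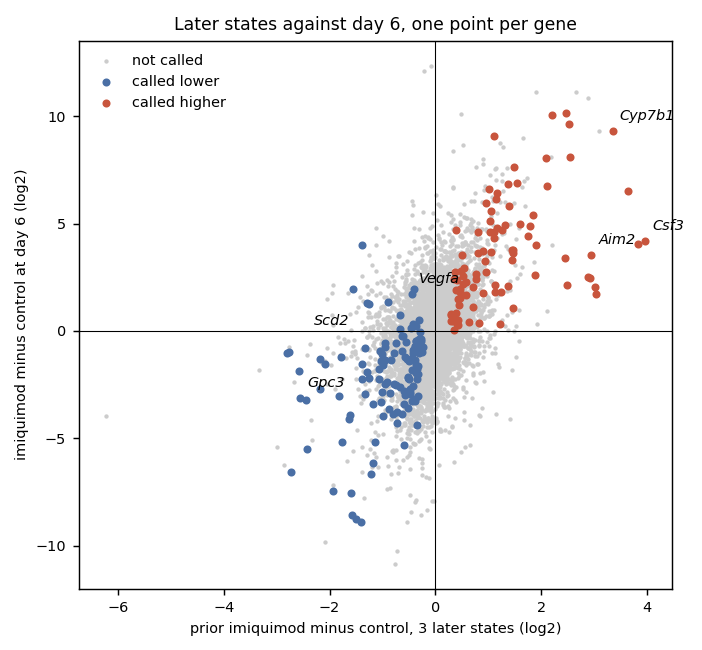
Log2 change in the 3 later states (x axis) against log2 change at day 6 (y axis), 1 point per gene, with genes called higher in red and lower in blue. All 91 red points lie above 0 on the y axis, and 13 of the 126 blue points do, Vegfa and Scd2 among them.

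Called genes that lie side by side moved the same way. Of the 206 called genes with coordinates, 27 formed 19 pairs with gaps of at most 100 kb, and in all 19 pairs both genes changed in the same direction, as did 52.4% of the 33180 such pairs among all tested genes. The caspase genes Casp1, Casp4 and Casp12 lie together on chromosome 9, the Sprr2 genes Sprr2d, Sprr2e, Sprr2f and Sprr2i on chromosome 3, and Krt6a and Krt6b on chromosome 15. Bhlhe22, a basic helix-loop-helix factor, is a neighbour of Cyp7b1 (log2 changes 3.03 and 3.35), and Ranbp17 of Gabrp (-1.79 and -1.59). Some of these pairs share sequence or overlap: Col4a1 and Col4a2 overlap by 84 bases, Rab11fip4os1 lies within Rab11fip4, and the Krt6 and Sprr2 genes are near copies, so that reads could be counted for the wrong member.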

How the data were processed

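RNA of sorted cells was made into Illumina TruSeq libraries, per the labels' protocols. The submitters' processing notes name STAR and mm10, without versions. The deposited files hold raw counts per gene, as the authors made them; strand use is not stated. Of 47729 gene IDs, 47224 matched a symbol, 60 symbols being shared. Of 29622 genes with a count in the 12 libraries, edgeR's filterByExpr kept 16243.

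In R 4.3.3, edgeR 4.0.16 (quasi-likelihood F test, robust, TMM) was fitted with 6 blocks of state and replicate number and 1 imiquimod term (5 residual degrees of freedom). Two-sided p values were adjusted over all genes (Benjamini-Hochberg, threshold 0.05). A fit with 1 imiquimod term per state (3 residual degrees of freedom) gave the changes by state and the test between states. Day 6 was tested on group means of all 16 libraries. Pair differences use log2 CPM with a prior count of 2. Same-numbered control and imiquimod libraries deviated together across genes (r = 0.489 at day 30, 0.574 at 6 h, 0.337 at 12 h). The common biological variation was 13.3%, and replicates differed by more than counting error (chi-square per gene 20.6 to 131). The fit was tested on simulated data.

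Named genes were up to 15 per direction with the largest changes among called genes of at least 1 log2 CPM and 1 sign in 6 pairs (predicted genes and pseudogenes left out), a panel of 12, up to 3 called members per list by p and up to 5 that differed between states. The comparison, the 28 pathway and 17 cell lists and these rules were chosen with earlier results of these data known. Of 989 list genes, 987 were found (6 by another symbol) and 863 tested. Alternatives covered normalization, filter, block, tool (DESeq2 1.42.0), depth and left-out libraries or states. ATAC-seq samples were not used here. The summed level of the macrophage markers is not reported here.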

Additional observations from a re-analysis of the deposited data

Results flagged for a closer look

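The imiquimod effect on S100a8 differed between day 30, 6 h and 12 h (adjusted p = 0.00691 in edgeR's test of the 3 effects), with log2 changes of 0.20, 4.55 and 2.48. That of S100a9 differed as well (adjusted p = 0.00691), with 0.15, 4.28 and 2.27. In both genes the day 30 pairs went 1 up and 1 down, and all 4 wound pairs were higher after imiquimod.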

How the results depend on the processing

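The 217 calls (91 higher, 126 lower) kept their sign under every alternative in which they were tested, but their number did not hold. It was 41 (19 and 22) with no replicate block, 367 (158 and 209) with the block and the mean of the 3 effects, 35 (14 and 21) with group means of 16 libraries and no block, 481 (225 and 256) with no filter and 706 (325 and 381) with DESeq2. All 41 calls made without the replicate block were among the 217. Without both strata of day 30 it was 1534 (872 and 662), of 6 h 25 (11 and 14) and of 12 h 11 (6 and 5). Without 1 library it ran from 75 to 489 (33 to 247 higher, 39 to 242 lower), lowest without a 6 h library and highest without a day 30 library numbered 2. In these analyses the partner of the removed library no longer bore on the imiquimod term either. The median of all genes stayed within -0.0083 and 0.00078 over the 3 scalings. The difference between states was called in 7 genes with RLE scaling, 0 with no replicate block, 52 without the day 30 stratum numbered 1, and 1 to 9 without 1 library; in the main analysis 2286 genes had an unadjusted p under 0.05. At day 6, 6333 of 17299 genes were called, and 4100 to 5438 without 1 library. Depth and the 2 libraries per group limit low genes: 9 of the higher genes rested on 3 or fewer counts per library at day 30, as did 325 of all 16243 genes. The cause of these shifts was not tested.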

Other observations

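Several called genes belong to none of the lists and were picked here after their values were seen. Ly6e, a surface protein of the Ly6 family, rose from a mean of 192 to 290 CPM (log2 change 0.58 ± 0.074, adjusted p = 0.0080 in edgeR's test), with changes of 0.59 at day 30, 0.47 at 6 h and 0.68 at 12 h. Upp1, uridine phosphorylase, rose from 8.95 to 16.0 CPM (0.89 ± 0.11) and Stom, the membrane protein stomatin, from 493 to 706 CPM (0.52 ± 0.073). All 3 genes were higher in 6 of 6 pairs, kept their calls without any 1 of the 12 libraries and had been higher at day 6. Tirap, an adaptor of Toll-like receptors, changed by 0.77 ± 0.13 (adjusted p = 0.024). The homeobox genes Irx3 (0.72 ± 0.10, adjusted p = 0.010) and Irx5 (0.40 ± 0.067, adjusted p = 0.021) of the same cluster were higher in 6 of 6 pairs. Irx5 kept its call in 4 of the 12 analyses without 1 library.

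Hmga2, a chromatin protein of growing tissue, held 1.43 and 0.81 CPM in 6 h controls and 9.90 and 8.44 CPM after imiquimod, and 5.80 and 5.35 CPM in 12 h controls and 16.4 and 34.5 CPM after imiquimod. It was near 0 in all 4 day 30 libraries. Srgn, a proteoglycan of blood cell granules, was higher in 6 of 6 pairs from a low level (mean 0.17 to 1.25 CPM, log2 change 2.88 ± 0.33, adjusted p = 0.0052), and Il2rg, the common chain of receptors for IL-2 and related cytokines, was lower in 6 of 6 pairs (13.9 to 7.11 CPM, -0.95 ± 0.13, adjusted p = 0.010). The part of blood cells in these values was not tested.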
